A study of Homo sapiens with 6 samples.

Results

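Collagen chain genes were examined in ARPE-19, an established human cell line derived from retinal pigment epithelium, after knockdown of EIF1. A gene was taken as a member when it was annotated as protein-coding and its symbol had the form of a collagen chain (COL, a type number, A and a chain number). The count table held 40 such genes among 30618 genes, of which 16578 were protein-coding. Of the 44 human symbols sorted here into collagen classes, COL2A1, COL6A3, COL9A1 and COL22A1 were not analysed here. The members comprised 10 fibrillar chains, 6 chains of type IV, the collagen of basement membranes, and 24 chains of other types. The study asked how loss of EIF1, a factor that helps the ribosome select the start codon, alters the transcriptome under high glucose. All 6 cultures were ARPE-19 cells in medium with 50 mM glucose and were transfected with a synthetic small interfering RNA. The 3 cultures of the NC group received a non-targeting sequence and the 3 cultures of the siEIF1 group received a sequence against EIF1. The study describes the 3 cultures of a group as biological replicates. Every library comes from 1 cell line, 1 siRNA sequence per group and high glucose, without an osmotic control, and normal glucose was not part of the comparison.

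Collagens are extracellular proteins made of 3 chains wound into a triple helix, in which glycine recurs at a fixed spacing. Fibrillar collagens (types I, II, III, V, XI, XXIV and XXVII) pack into cross-striated fibrils, whereas type IV forms a sheet-like network in basement membranes. Other types cover fibril surfaces (the FACIT types, such as XII and IX), form beaded filaments (VI), hexagonal networks (VIII and X), anchoring fibrils (VII) or span the cell membrane (XIII, XVII, XXIII, XXV). In the eye, the pigment epithelium rests on Bruch's membrane, whose layers hold type IV and type VIII networks and fibrillar collagen, and thickening of basement membranes is a known feature of diabetic tissue. The α1 and α2 chains of type IV assemble together, and so do α3, α4 and α5, and α5 and α6.

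The libraries held 26499929 to 31431479 counts, with the 3 NC libraries the shallowest. EIF1 had FPKM values (fragments scaled to transcript length and to library size) of 294.35, 281.08 and 281.28 in the NC and 24.28, 22.68 and 23.5 in the siEIF1 libraries, so the target was lower in every library labelled as knockdown. EIF1 fell by 3.58 on the log2 scale (SE 0.055, edgeR quasi-likelihood test, Benjamini-Hochberg adjusted p = 1.1e-13), which leaves 8.34% of its level. The cell label could be checked in part. OTX2, MITF, KRT8 and KRT18 were expressed, TYR and TYRP1 stayed at or below an FPKM of 0.12, and the counts of BEST1 cannot be separated from those of FTH1, which overlaps it on the other strand. RPE65 and TTR were not analysed here. Of 8 tested pigment epithelium markers 1 was higher and 0 lower, with 1 higher and 1 lower at an unadjusted p under 0.05. Their summed FPKM was 87.6 to 97.1 in the NC and 66.8 to 90.2 in the siEIF1 libraries, most of it from BEST1 (log2 fold change -0.32, edgeR adjusted p = 0.11). LRAT had a log2 fold change of -0.40 (adjusted p = 0.33). RLBP1, a retinoid-binding protein of this tissue and the marker that passed, was low, with an FPKM of 0.27, 0.17 and 0.27 in the NC and 0.69, 0.62 and 0.73 in the siEIF1 libraries. Of 4 tested simple epithelium markers 2 were higher and 0 lower, with 2 higher and 1 lower at an unadjusted p under 0.05. KRT8 and KRT18 had log2 fold changes of 0.24 and 0.25 (edgeR adjusted p = 0.0095 and 0.0044), and KRT8 lost its call without NC replicate 1 (0.051) or siEIF1 replicate 2 (0.053). OCLN, at -0.25 (edgeR adjusted p = 0.15), and TJP1, at 0.11 (0.25), did not pass. CDH1 and EPCAM were near 0. All 8 fibroblast markers were in the count table. Their summed FPKM was 22.3 to 26.2 in the NC and 33.2 to 36.9 in the siEIF1 libraries. ACTA2 and PDGFRB made up most of that sum, with log2 fold changes of 0.66 and 0.60 and adjusted p of 9.4e-06 and 0.0018 (edgeR). FAP, the other marker that passed, was lower (-0.26, adjusted p = 0.036), and was not called without NC replicate 1 (0.153), NC replicate 3 (0.057), siEIF1 replicate 2 (0.066) or siEIF1 replicate 3 (0.095), or with limma on FPKM (0.086 and 0.081). S100A4 was expressed at an FPKM of 1.51 to 2.04 and did not pass (-0.045, edgeR adjusted p = 0.90). The other fibroblast markers were at or near 0, with PDGFRA, THY1 and LUM at or below an FPKM of 0.02 and DCN at no more than 2 counts. Endothelial markers summed to 0.18 to 0.31 and leukocyte markers to 0.83 to 1.01, of which nearly all was CD68. ACTA2 and PDGFRB thus moved the same way as the collagens below, and their part in those results was not tested.

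The genomic starts of 4 chains described below are shown because of their arrangement and their response: COL4A1 and COL4A2, which share the stretch between their start sites, and COL7A1 and COL11A1, an anchoring fibril chain and a fibrillar chain that were both higher in the siEIF1 group. All come from RefSeq on GRCh38.p14, in the direction of transcription for COL7A1 and COL11A1 and on the forward strand, the direction of COL4A2, for the shared stretch. Capitals mark a CCAAT box (CCAAT), a GC box (GGGCGG) or a TATA box (TATAAA), each searched on both strands, so that the reverse complement of a box is also in capitals. The shared stretch is chr13:110307158-110307257. It is 100 of the 126 bases between both RefSeq starts and lies upstream of the annotated start of COL4A1. It also falls in an intron of 1 longer COL4A2 transcript of GENCODE release 44. The 250 bases before the COL7A1 start are chr3:48595330-48595579, on the reverse strand and in no annotated gene. The 250 bases before the COL11A1 start are chr1:103108523-103108772, on the reverse strand, in an intron of 1 longer COL11A1 transcript.
COL4A1 and COL4A2, shared stretch: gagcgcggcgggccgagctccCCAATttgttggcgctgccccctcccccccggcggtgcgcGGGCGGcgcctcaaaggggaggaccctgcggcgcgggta
COL7A1: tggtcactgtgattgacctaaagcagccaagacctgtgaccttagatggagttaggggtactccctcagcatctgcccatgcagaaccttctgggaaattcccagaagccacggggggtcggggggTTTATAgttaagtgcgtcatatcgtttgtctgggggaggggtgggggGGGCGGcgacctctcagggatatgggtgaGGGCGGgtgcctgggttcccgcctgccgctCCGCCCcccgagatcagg
COL11A1: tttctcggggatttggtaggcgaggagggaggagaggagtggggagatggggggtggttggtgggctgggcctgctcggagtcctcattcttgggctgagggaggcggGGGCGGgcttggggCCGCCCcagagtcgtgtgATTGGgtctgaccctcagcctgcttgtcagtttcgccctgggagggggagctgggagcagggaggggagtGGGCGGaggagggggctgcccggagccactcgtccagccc
The shared stretch of COL4A1 and COL4A2 held 1 CCAAT box and 1 GC box in 78% G and C bases. The COL7A1 stretch held 3 GC boxes and 1 TATA box on the opposite strand, and the COL11A1 stretch held 3 GC boxes and 1 CCAAT box. Windows of 250 bases before and 50 bases after the start were given for 17 of the 21 chains that entered the test below, with 23 starts. Only the 250 bases before the start were searched and used for the G and C content. GC boxes were found in 17 of these 23 windows (73.9%) and in 42.6% of 35116 windows of all genes. CCAAT boxes were found in 6 (26.1%, against 32.0% of all) and TATA boxes in 3 (13.0%, against 10.7%). The median G and C content was 66.4% for these chains and 58% for all windows. These are letter matches and no evidence of binding.

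Of the 40 chains, 21 passed the filter on low counts and 8 of these were higher in the siEIF1 group at an adjusted p under 0.05, while 0 were lower by edgeR, DESeq2 or limma. At an unadjusted p under 0.05, 12 were higher and 1, COL11A2, was lower. The share of all tested genes past this unadjusted limit was not counted, which also holds for the markers and lists. Across all 16749 genes tested, 10.2% were higher and 10.4% lower at an adjusted p under 0.05. The 8 chains were COL7A1, COL4A1, COL5A2, COL6A1, COL5A1, COL11A1, COL18A1 and COL4A2, in falling order of fold change, with log2 fold changes between 0.60 and 0.22. None of the 21 had a fold above 2 or below 0.5 as well, a limit that 1.71% of all tested genes passed. Among the 12 chains with a mean count of at least 1000, 7 were higher and all 12 log2 fold changes were above 0, against 17.6% higher and 13.0% lower among the 5297 tested genes of that depth. The median log2 fold change was 0.22 over the 21 chains and 0.0033 over all tested genes. In 9 chains the 3 siEIF1 libraries all lay above the 3 NC libraries in CPM (counts scaled to library size), and in 0 chains all lay below. For all tested genes these shares were 18.2% and 18.9%, and for the 5297 deeper genes, where 8 of the 12 chains lay above, they were 27.1% and 21.6%. Between libraries of the same replicate number, 14 of 21 chains were higher in the siEIF1 library of all 3 pairs and COL13A1 was lower in all 3. The labels state no pairing, and the share of all tested genes with this pattern was not counted. The calls of COL4A1, COL5A2, COL6A1, COL7A1, COL11A1 and COL18A1 held in all 14 alternative analyses. Since the RNA came from whole cultures, a change in RNA per cell and a change in the share of cells making it cannot be told apart.

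**Figure D1:**
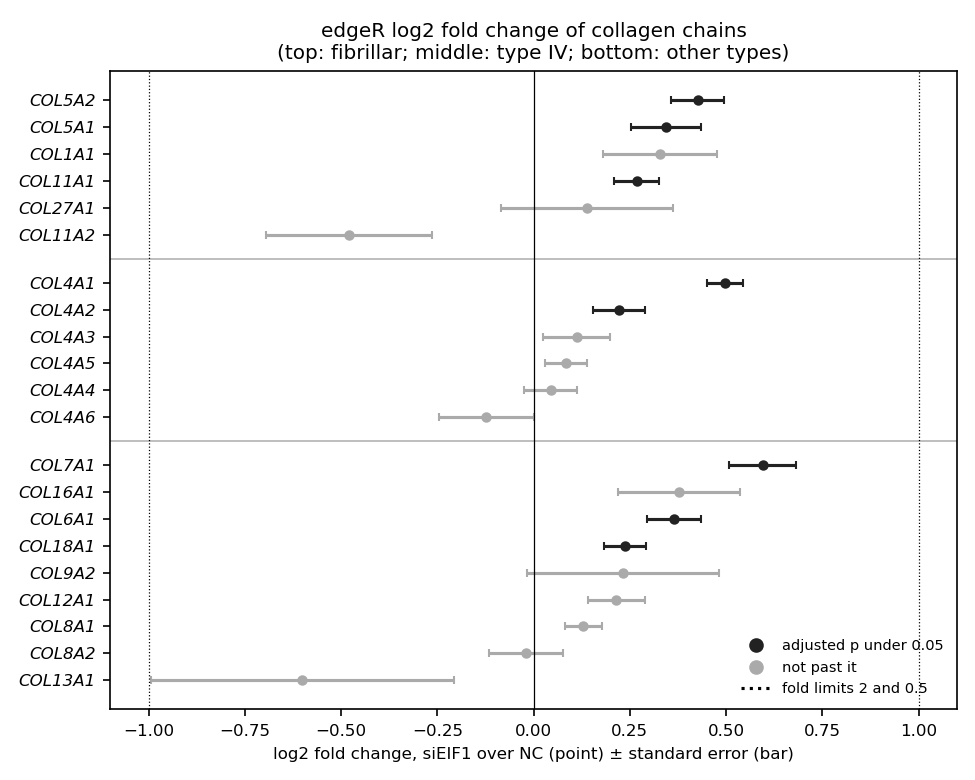
Log2 fold change of each of the 21 tested collagen chains (horizontal axis, siEIF1 over NC, edgeR) with its standard error as a bar, in 3 blocks for fibrillar, type IV and other chains. The 8 black points passed an adjusted p of 0.05 and all lie right of 0, COL4A1 and COL7A1 farthest among them, and no point lies outside the dotted lines at a log2 fold change of 1 in either direction.

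In level, a few chains dominated the collagen transcripts of these cells. COL8A1, the α1 chain of the hexagonal network, alone took 43.9% ± 2.28 (SD, n = 3) of the summed collagen FPKM in the NC group. COL18A1, whose end fragment is endostatin, followed with 16.1%, then COL11A1 with 8.92% and COL4A2 with 8.30%. The first 9 chains held 93.2% of the sum. Neighbours in this order did not all separate. In the NC libraries COL11A1 (FPKM 15.29 to 17.50) overlapped with COL4A2 (14.21 to 16.37), and COL6A1 (5.46 to 6.63), COL4A1 (5.46 to 5.88) and COL4A4 (5.05 to 6.17) overlapped with each other, as COL4A4 did with COL5A2 (4.31 to 5.27). COL1A1, the main chain of skin and bone fibrils, reached an FPKM of only 0.36 to 0.56 over all 6 libraries. Transcripts of type I chains were thus scarce, and the fibrillar class was led by COL11A1. FPKM values were given for 36 of the 40 chains.

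**Figure D2:**
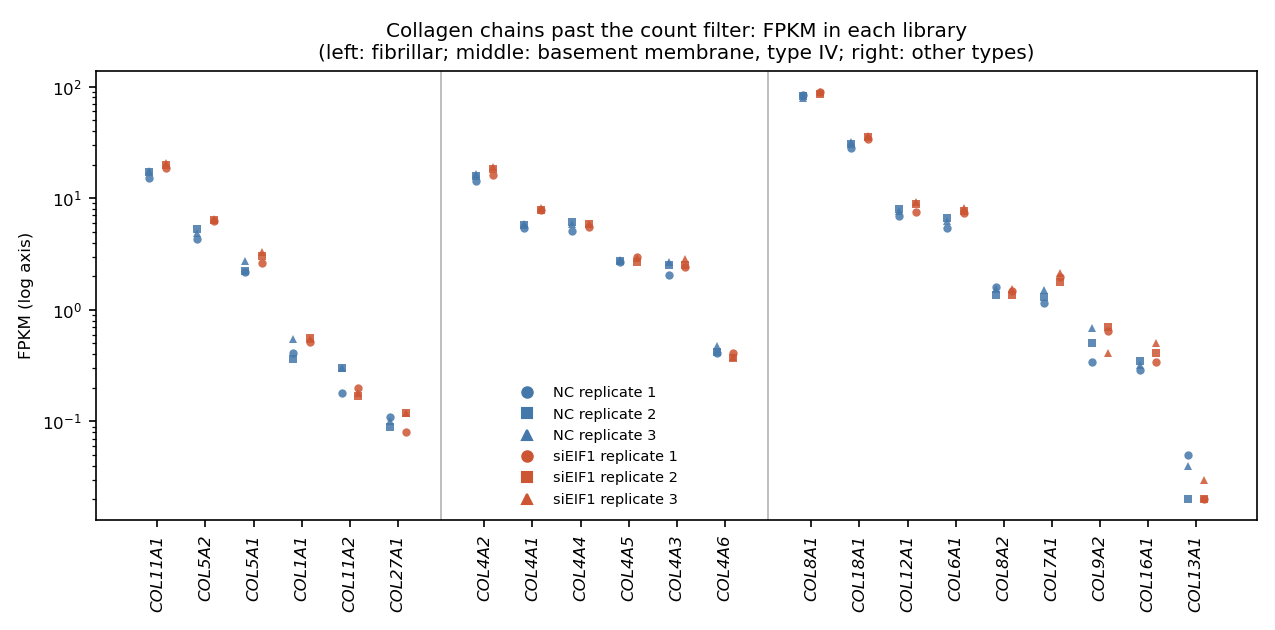
FPKM of the 21 tested collagen chains in each library (vertical log axis), blue for NC and red for siEIF1, with circles, squares and triangles for replicates 1, 2 and 3. COL8A1 is the most abundant chain at 79.53 to 90.07, and the levels of the 21 chains extend down to 0.02 for COL13A1.

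Summed over the 36 chains, the FPKM was 179.68, 190.22 and 189.71 in the NC and 206.25, 209.49 and 219.16 in the siEIF1 libraries, a ratio of means of 1.13. Without COL8A1 the ratio was 1.18. The fibrillar sum was 24.7 ± 1.92 for NC and 30 ± 1.44 for siEIF1 (SD, n = 3, ratio 1.21). The type IV sum was 32.5 ± 2.27 and 37.4 ± 2.06 (ratio 1.15), and that of the other types was 129.4 ± 1.97 and 144.3 ± 3.73 (ratio 1.12). In each class the 3 siEIF1 libraries lay above the 3 NC libraries. By share, type IV made up 16.6% to 18.0% of the collagen FPKM over the 6 libraries. Fibrillar chains made up 12.5% to 14.5% and other types 67.6% to 70.8%. The groups overlapped for type IV and other types. For fibrillar chains they almost met, at 13.763% in NC replicate 3 and 13.765% in siEIF1 replicate 1. The share of COL4A1 was 3.06% ± 0.037 for NC and 3.75% ± 0.041 for siEIF1 (SD, n = 3).

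Among the fibrillar chains, 6 of 10 could be tested and 3 were higher, namely COL5A2, COL5A1 and COL11A1, with a class median log2 fold change of 0.30. Type V and type XI chains are minor fibril components that set fibril diameter and start fibril assembly. COL5A2 had FPKM values of 4.31, 5.27 and 4.91 in the NC and 6.26, 6.44 and 6.51 in the siEIF1 libraries, so that the groups did not overlap (log2 fold change 0.43, SE 0.069, edgeR adjusted p = 0.00071). COL11A1, the most abundant fibrillar chain, was measured at 15.29, 17.17 and 17.50 against 18.73, 20.04 and 20.52, again without overlap and with a smaller rise (0.27, SE 0.058, adjusted p = 0.0053). COL5A1 was at 2.18, 2.24 and 2.73 in the NC libraries, against 2.61, 3.02 and 3.30 after knockdown. Its lowest siEIF1 library lay below its highest NC library, yet it was higher in siEIF1 between all libraries of the same number (0.34, SE 0.090, adjusted p = 0.016). The call of COL5A1 was lost without NC replicate 1 (adjusted p = 0.081), NC replicate 2 (0.078) or siEIF1 replicate 2 (0.071), and with limma on log2(FPKM + 1) (0.117) or log2(FPKM + 0.1) (0.110).

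The remaining fibrillar chains with enough counts were low. COL1A1 had 119, 113 and 168 counts in the NC and 177, 186 and 179 in the siEIF1 libraries, and its log2 fold change of 0.33 (SE 0.15) did not pass (edgeR adjusted p = 0.14). Without NC replicate 3, the highest NC library, it passed (0.51, adjusted p = 0.032). COL11A2, the partner of COL11A1 in type XI, went the other way in value. It had 44, 78 and 76 counts in the NC and 57, 47 and 49 in the siEIF1 libraries (log2 fold change -0.48, SE 0.22, adjusted p = 0.14), and passed as lower without NC replicate 1 (-0.68, adjusted p = 0.040). COL27A1, a cartilage fibril chain, had a mean of 50.3 counts and a log2 fold change of 0.14 (SE 0.22, adjusted p = 0.72).

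All 6 type IV chains passed the filter, and the 2 that passed the test were the pair that builds the common basement membrane network, COL4A1 and COL4A2. The class median log2 fold change was 0.098. COL4A1 had 2604, 2966 and 2933 counts in the NC and 4408, 4213 and 4332 in the siEIF1 libraries, or FPKM values of 5.46, 5.77 and 5.88 against 7.83, 7.80 and 8.17. The groups lay far apart relative to their spread, and COL4A1 had the smallest adjusted p of all chains (log2 fold change 0.50, SE 0.046, edgeR adjusted p = 9.1e-06). COL4A2, transcribed from the opposite strand, was at FPKM 14.21, 15.92 and 16.37 in the NC libraries, against 16.11, 18.17 and 19.22 after knockdown. The FPKM groups overlapped by 1 library and the CPM groups did not (0.22, SE 0.068, adjusted p = 0.033). COL4A2 passed by a small margin. Its call was lost without NC replicate 1 (adjusted p = 0.145), NC replicate 2 (0.062), NC replicate 3 (0.058), siEIF1 replicate 2 (0.136) or siEIF1 replicate 3 (0.069), and with limma on log2(FPKM + 1) (0.125) or log2(FPKM + 0.1) (0.121).

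The chains of the specialised type IV networks, which are best known from the kidney filter, did not pass. COL4A3 was at FPKM 2.05, 2.52 and 2.70 in the NC and 2.41, 2.52 and 2.84 in the siEIF1 libraries (log2 fold change 0.11, SE 0.088, edgeR adjusted p = 0.42). COL4A4, its head-to-head neighbour, was at 5.05, 6.17 and 5.86 against 5.56, 5.93 and 5.89 (0.045, SE 0.068, adjusted p = 0.70), and took the opposite sign without NC replicate 1 (-0.032). In both chains the groups overlapped, in COL4A3 only in part. COL4A5 on chromosome X had FPKM values of 2.70, 2.74 and 2.77 against 2.99, 2.67 and 2.92. Its groups separated in CPM but not in FPKM (0.084, SE 0.055, adjusted p = 0.32). COL4A6 was the least abundant type IV chain, with 0.41, 0.42 and 0.47 against 0.41, 0.37 and 0.38 (-0.12, SE 0.12, adjusted p = 0.54). Of the type IV chains it was the 1 with a negative value.

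The type IV genes lie in 3 head-to-head pairs on GRCh38, with coordinates of GENCODE release 44. COL4A1 runs from 110148963 to 110307157 on the reverse strand of chromosome 13 and COL4A2 from 110305812 to 110513209 on the forward strand, so that the annotated genes overlap by 1346 bases. COL4A4 and COL4A3 on chromosome 2 are separated by 170 bases, and COL4A6 and COL4A5 on chromosome X by 340 bases. The program and strand setting used for counting are not given in the sources used here, so reads in the overlap of COL4A1 and COL4A2 cannot be assigned with certainty.

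Chains that form 1 trimer or share a start region were compared as FPKM ratios, which set levels of 2 genes on a per-length scale. Of 12 pairs, 4 had both chains above an FPKM of 0.5 in every library. COL4A1 over COL4A2 was 0.384, 0.362 and 0.359 in the NC and 0.486, 0.429 and 0.425 in the siEIF1 libraries. The ratio was higher in all 3 siEIF1 libraries, by 0.28 on the log2 scale, with p = 0.1 by a two-sided exact permutation test, which is the smallest p that 3 against 3 can give, and an adjusted p of 0.4 over the 4 pairs. COL8A1 over COL8A2 averaged 54.4 ± 4.98 and 60.2 ± 2.11 (SD, n = 3), a log2 difference of 0.15 (exact permutation p = 0.2, adjusted 0.4). COL4A3 over COL4A4 averaged 0.425 ± 0.031 and 0.447 ± 0.031 (log2 difference 0.072, exact permutation p = 0.5, adjusted 0.6), and COL5A1 over COL5A2 averaged 0.496 ± 0.066 and 0.464 ± 0.045 (log2 difference -0.090, exact permutation p = 0.6, adjusted 0.6).

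**Figure D3:**
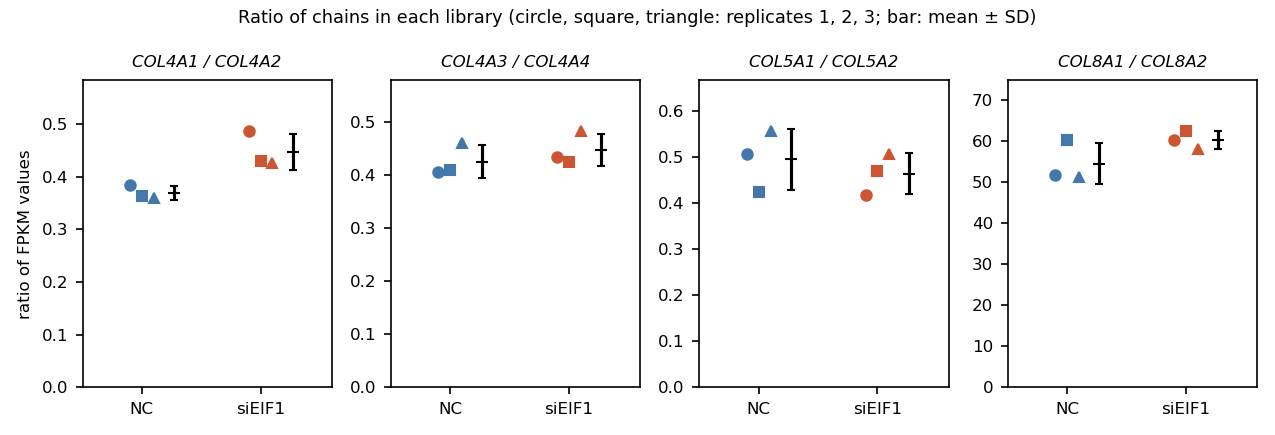
Ratio of FPKM values of 2 chains in each library (vertical axes from 0), blue for NC and red for siEIF1, with circles, squares and triangles for replicates 1, 2 and 3 and a bar for mean ± SD. The groups are separate for COL4A1 over COL4A2 and overlap for the other 3 ratios.

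Among the chains of other types, 9 of 24 could be tested and 3 were higher, each from a different structural kind, with a class median log2 fold change of 0.23. COL7A1, the single chain of the anchoring fibrils that tie basement membrane to the matrix below, had the highest log2 fold change of the 21 chains. It had 417, 513 and 565 counts in the NC and 845, 728 and 865 in the siEIF1 libraries, or FPKM values of 1.15, 1.31 and 1.49 against 1.98, 1.78 and 2.15 (0.60, SE 0.088, edgeR adjusted p = 0.00038), a 1.51-fold difference. The lowest siEIF1 library exceeded the highest NC library. COL6A1, a chain of the beaded filaments, was at FPKM 5.46, 6.63 and 6.25 in the NC libraries and 7.40, 7.72 and 8.20 after knockdown, also without overlap (0.36, SE 0.070, adjusted p = 0.0025). COL18A1, a basement membrane chain that carries heparan sulfate, was at 28.07, 30.49 and 31.65 against 33.63, 35.17 and 36.06 (0.24, SE 0.054, adjusted p = 0.0068). Its groups did not overlap. SLC19A1 overlaps COL18A1 on the opposite strand, with a mean count of 1677 against 9802 for COL18A1.

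COL8A1, though the most abundant chain, had a small difference. Its FPKM was 83.34, 82.42 and 79.53 in the NC and 89.19, 85.40 and 90.07 in the siEIF1 libraries. The groups did not overlap, but the log2 fold change of 0.13 (SE 0.049) did not pass (edgeR adjusted p = 0.082), and it passed with DESeq2 (0.043) and with the replicate number as a block (0.042). COL8A2, its partner in type VIII, was at 1.61, 1.37 and 1.55 against 1.48, 1.37 and 1.55 (log2 fold change -0.020, SE 0.096, adjusted p = 0.92), and its sign turned without NC replicate 1 (0.028) or siEIF1 replicate 2 (0.010). COL12A1, a FACIT chain on fibril surfaces, was at 6.86, 7.95 and 7.76 in the NC and 7.58, 8.92 and 9.34 in the siEIF1 libraries. Overlap came from siEIF1 replicate 1, and the difference of 0.21 (SE 0.074) did not pass (adjusted p = 0.058). COL12A1 passed without siEIF1 replicate 1 (0.30, adjusted p = 0.0040), with DESeq2 (adjusted p = 0.033), with the replicate block (adjusted p = 0.0014) and with no filter (adjusted p = 0.0037).

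The last 3 tested chains of other types had FPKM values below 1. COL16A1, also a FACIT chain, was at FPKM 0.29, 0.35 and 0.32 in the NC libraries and 0.34, 0.41 and 0.50 after knockdown (log2 fold change 0.38, SE 0.16, edgeR adjusted p = 0.11), and passed without siEIF1 replicate 1 (0.51, adjusted p = 0.034). COL9A2, a chain of cartilage fibril surfaces, was at 0.34, 0.50 and 0.68 against 0.65, 0.70 and 0.41 (0.23, SE 0.25, adjusted p = 0.57). COL13A1, a transmembrane collagen, had a mean of 12.8 counts and the lowest value of all tested chains (-0.60, SE 0.39, adjusted p = 0.32). Its FPKM did not exceed 0.05. When the basement membrane group was widened to types VII, XV, XVII and XVIII, which also lie at basement membranes, 8 of 10 chains were tested, 4 were higher and the median was 0.17.

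The other 19 chains did not pass the filter, 4 fibrillar and 15 of other types, and are given as counts. None had more than 19 counts in a library, 15 never had more than 9 and 12 never had more than 3. Together they had 141 counts in the NC and 171 in the siEIF1 libraries. The other chains of type I and type III fibrils were nearly unread. COL1A2 had 2, 1 and 3 counts in the NC and 0, 0 and 2 in the siEIF1 libraries, and COL3A1 had 1, 3 and 2 against 1, 1 and 2. COL6A2, which assembles with COL6A1, had 9, 8 and 13 against 8, 6 and 15, far below the 983 to 1640 counts of COL6A1. COL24A1 and COL5A3, the remaining fibrillar chains, never exceeded 3.

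After COL6A2, the low chains with the most counts were COL25A1, COL17A1 and COL28A1. COL17A1, the hemidesmosome collagen of skin, had 5, 5 and 9 counts in the NC and 16, 5 and 14 in the siEIF1 libraries. COL25A1, known from amyloid plaques, had 5, 7 and 9 against 19, 12 and 4. COL28A1 had 1, 8 and 5 against 14, 11 and 8. In all 3 the ranges of the groups met or overlapped. COL26A1 (0, 5 and 6 against 5, 2 and 3) and COL9A3 (1, 3 and 3 against 2, 6 and 3) overlapped as well, and COL21A1 did not exceed 4. COL6A5, COL6A6, COL10A1, COL14A1, COL15A1, COL19A1, COL20A1 and COL23A1 had at most 2 counts in any library. At this depth a difference in these chains was not detectable. NT5DC1 and LMBRD1, which overlap COL10A1 and COL19A1, had mean counts of 1583 and 1544.

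**Figure D4:**
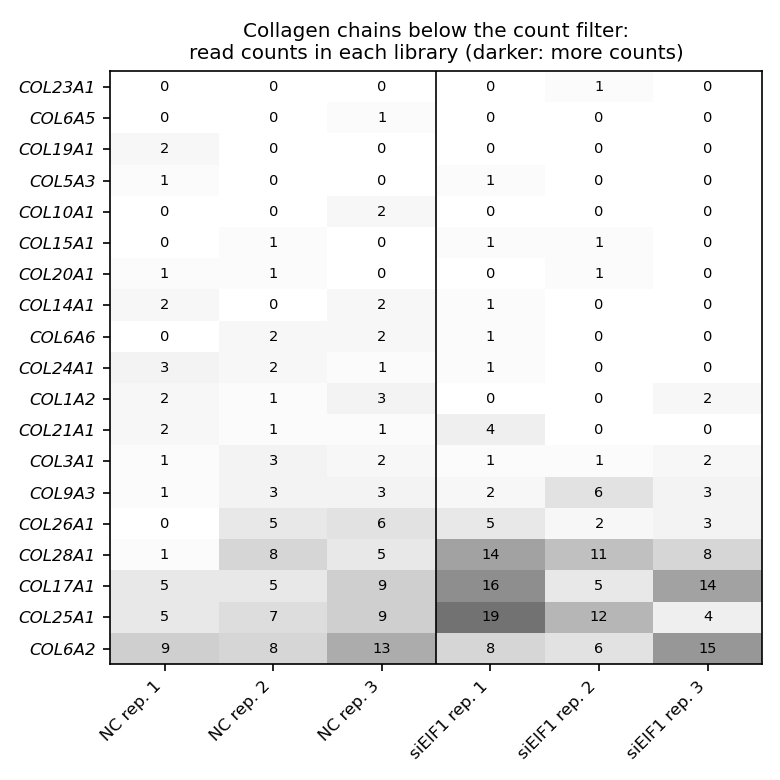
Read counts of the 19 collagen chains below the count filter (rows) in the 6 libraries (columns), with the count printed in each cell and darker cells for more counts. The highest cell is COL25A1 in siEIF1 replicate 1 with 19 counts, and COL23A1 and COL6A5, with 1 count each in all, are the lowest.

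Genes that act on collagen chains after transcription were described from lists by role, on the same fit. Of 20 genes that modify and fold the chains, 9 were higher and 3 lower, with a median log2 fold change of 0.11. The shares over all tested genes, against which this and the next lists stand, were 10.2% higher and 10.4% lower, or 17.6% and 13.0% among the deeper genes. Some collagen prolyl and lysyl hydroxylases and their partners were among the higher ones, while P4HA1, P4HA2, PLOD2 and PLOD3 did not pass. P3H2, a prolyl 3-hydroxylase active on type IV, had a log2 fold change of 0.57 (SE 0.065, edgeR adjusted p = 5.0e-05), P4HB, the β subunit of prolyl 4-hydroxylase, 0.38, P3H3 0.37 and FKBP10, a foldase, 0.37. SERPINH1, the collagen chaperone HSP47, fell instead. Its FPKM was 27.57, 27.76 and 28.27 in the NC and 18.01, 17.04 and 17.03 in the siEIF1 libraries (-0.66, SE 0.046, adjusted p = 9.0e-07). TMEM38B, an endoplasmic reticulum ion channel needed for bone collagen, also fell (-0.53, SE 0.079, adjusted p = 0.00043). CRTAP, the other lower gene, was at FPKM 54.56, 56.74 and 56.80 in the NC and 47.56, 47.12 and 48.28 in the siEIF1 libraries (-0.21, SE 0.046, edgeR adjusted p = 0.0052). SERPINH1 and TMEM38B were lower in all 3 siEIF1 libraries than in any NC library, opposite in direction to the 8 chains, and each kept its call in all 14 alternatives.

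Export, cleavage and crosslinking genes come next. Of 12 genes that carry procollagen out of the endoplasmic reticulum, SEC31A and SEC13, coat proteins of the transport vesicle, were higher (log2 fold changes 0.24 and 0.16, edgeR adjusted p = 0.0022 and 0.048) and MIA2, a cargo receptor, was lower (-0.29, adjusted p = 0.020), with a median of -0.069. These 2 higher genes and 1 lower gene stand beside 17.6% higher and 13.0% lower among tested genes with high counts. SEC13 lost its call without NC replicate 2 (adjusted p = 0.196), NC replicate 3 (0.169), siEIF1 replicate 1 (0.146) or siEIF1 replicate 2 (0.136), and also with RLE (0.053), upper-quartile scaling (0.053), no filter (0.076), DESeq2 (0.064) and limma on FPKM (0.109 and 0.108). MIA2 lost its call without NC replicate 1 (0.092) or siEIF1 replicate 2 (0.10) and with limma on FPKM (0.095 and 0.089). Of 13 tested genes for propeptide cleavage and crosslinking, 4 were higher and 1 lower, with a median of 0.099. At an unadjusted p under 0.05, 4 were higher and 2, LOX and ADAMTS14 (-0.27, edgeR adjusted p = 0.14), were lower. LOX, the lysyl oxidase that crosslinks fibrils, had an FPKM of 45.61, 37.75 and 41.62 in the NC and 30.96, 27.02 and 32.28 in the siEIF1 libraries (-0.45, SE 0.069, adjusted p = 0.00049). Its relatives LOXL4 (0.64, SE 0.094) and LOXL1 (0.28, SE 0.044) rose, while LOXL2 (0.019, edgeR adjusted p = 0.82) and LOXL3 (-0.21, 0.53) did not pass. BMP1, which removes the C-terminal propeptide, also rose (0.29, SE 0.061). ADAMTS2, which removes the N-terminal one, was higher (0.26, adjusted p = 0.043) and lost its call without any 1 of NC replicates 1 (0.111), 2 (0.097) and 3 (0.102) and siEIF1 replicates 2 (0.155) and 3 (0.083). The ADAMTS2 call also ended with DESeq2 (0.104), no filter (0.088) and limma on FPKM (0.137 and 0.169), so that 5 of 14 alternatives kept it.

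Partners of the collagens in the matrix were higher or did not pass. Of 14 tested partners of the type IV network, 7 were higher and 0 lower (9 and 0 at an unadjusted p under 0.05, and 0 lower with DESeq2 and limma), with a median log2 fold change of 0.22. NID2, a nidogen that links laminin to type IV, had 0.79 (SE 0.13, edgeR adjusted p = 0.00075). LAMA4 (0.30), LAMC1 (0.26), PXDN (0.32), the peroxidase that makes sulfilimine bonds in type IV, HSPG2 (0.43) and AGRN (0.23) were also higher. HSPG2 lost its call without NC replicate 1 (adjusted p = 0.148), NC replicate 2 (0.068), siEIF1 replicate 2 (0.113) or siEIF1 replicate 3 (0.087), and with DESeq2 (0.150) and limma on FPKM (0.155 and 0.148). AGRN lost its call without NC replicate 1 (0.062) or siEIF1 replicate 2 (0.057) and with limma (0.054 and 0.052). Only 4 of the 14 were higher without siEIF1 replicate 2. Of 9 tested fibril-organising genes, 4 were higher and 0 lower (5 and 0 at an unadjusted p under 0.05, and 0 lower with DESeq2 and limma), with a median of 0.30. TGFBI, whose product binds several collagens, had FPKM values of 80.33, 78.60 and 83.18 in the NC and 112.61, 112.55 and 110.29 in the siEIF1 libraries (0.49, SE 0.049, adjusted p = 1.6e-05). THBS1 had a log2 fold change of 0.54 (SE 0.068), FN1 of 0.23 (SE 0.056) and MATN2 of 0.19 (SE 0.061). MATN2 lost its call without NC replicate 1 (adjusted p = 0.156), NC replicate 3 (0.138) or siEIF1 replicate 2 (0.188) and with limma on FPKM (0.074 and 0.072), as did FN1 with limma (0.078 and 0.074).

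Receptors, proteases and proteins that only resemble collagens are given last. Of 10 tested receptor and uptake genes, DDR1 and ITGA1, a kinase and an integrin chain that bind collagen, were higher (log2 fold changes 0.41 and 0.35, edgeR adjusted p = 0.00020 and 0.0031), and the median was 0.19. ITGA1 lost its call with limma on FPKM (0.066 and 0.081). With the replicate block 4 were higher and 1 lower. Without siEIF1 replicate 2 there were 4 higher, and without siEIF1 replicate 3 there were 2 lower. Of 4 tested proteases, MMP2, a gelatinase that degrades type IV collagen, was higher, at FPKM 6.83, 7.43 and 7.71 in the NC and 11.85, 11.22 and 10.81 in the siEIF1 libraries (0.65, SE 0.061, adjusted p = 1.0e-05). The median of the 4 was 0.10, and with the replicate block 2 were higher. Of 9 tested genes with collagen-like domains that are not collagen chains, SCARA3 was higher (0.26, adjusted p = 0.026), 1 gene beside the 10.2% over all tested genes, with a median of 0.17, and 2 genes were higher with the replicate block. SCARA3 lost its call without NC replicate 2 (adjusted p = 0.093), NC replicate 3 (0.080), siEIF1 replicate 1 (0.072) or siEIF1 replicate 3 (0.062), and with DESeq2 (0.067), no filter (0.053) and limma on FPKM (0.081 and 0.077). In none of the 8 lists did a gene pass the fold limits of 2 and 0.5.

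**Figure D5:**
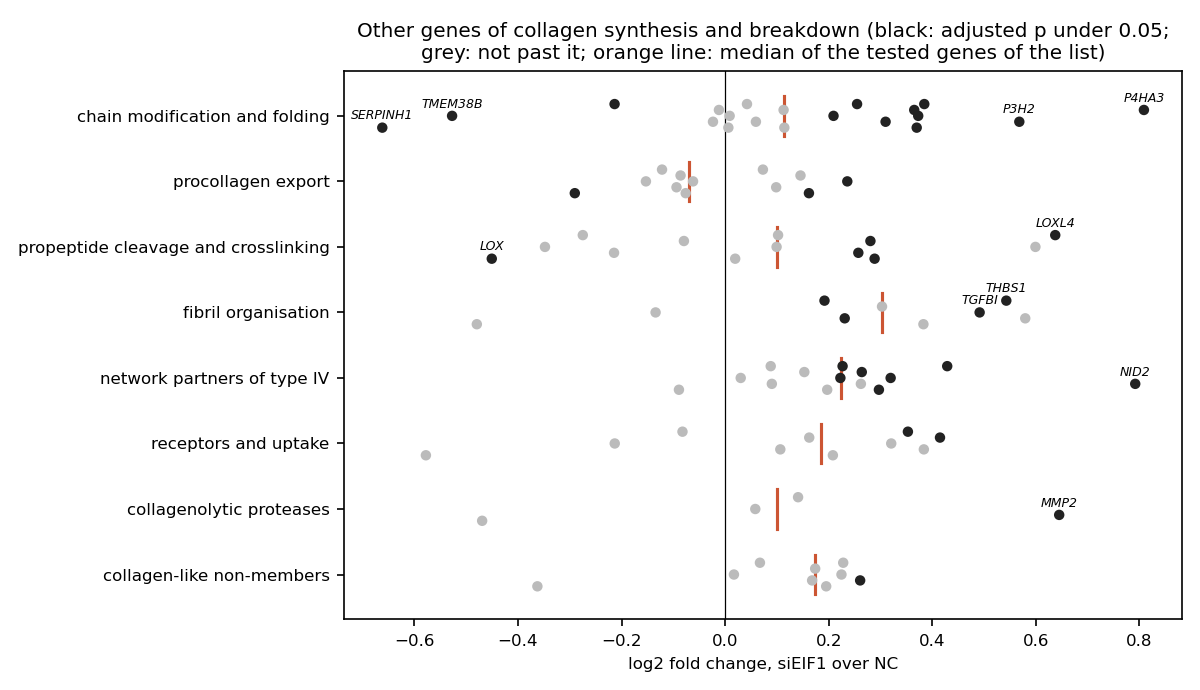
Log2 fold change (horizontal axis, siEIF1 over NC, edgeR) of each tested gene in 8 lists of collagen-related genes, black for an adjusted p under 0.05 and grey for the others, with an orange line at the median of a list. SERPINH1, TMEM38B and LOX lie left of 0, opposite to NID2, LOXL4 and MMP2 on the right.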

How the data were processed

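RNA from ARPE-19 cells in 50 mM glucose was compared between 3 NC and 3 siEIF1 libraries, grouped by their titles. Per the labels, directional libraries from polyadenylated RNA were sequenced as paired 150 nt reads, and per the submitters' notes reads were trimmed with FASTX-Toolkit 0.0.13 and aligned to GRCh38 with HISAT2. The authors deposited read counts of uniquely mapped reads per gene, not normalized, and FPKM values rounded to 2 decimals (30275 genes, with 343 genes in the count table alone). The counting program, strand setting and annotation release are not given in the sources used here. All columns were matched, with 0 left over.

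Counts were tested with edgeR 4.0.16 in R 4.3.3 (filterByExpr, TMM, quasi-likelihood F test, Benjamini-Hochberg over 16749 genes). A gene passed at an adjusted p under 0.05, and the fold limits of 2 and 0.5 are those of the study. Standard errors were derived from the F statistic. FPKM was used to compare levels between genes, and CPM to compare libraries. Chain ratios were compared by exact permutation tests. Library totals ran from 26499929 to 31431479, and chains with few counts have wide standard errors. Libraries of a group differed beyond sampling noise, with chi-square per degree of freedom of 3.03 to 14.1. This cannot show separate cultures, and their use as biological replicates rests on the study's description. Deviations of same-numbered NC and siEIF1 libraries from their group means correlated at 0.152, 0.129 and 0.167. Differently numbered libraries were not compared and the labels state no pairing, so these values cannot show that the samples were paired. The main test was unpaired.

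Alternatives were RLE and upper-quartile scaling, other count filters, DESeq2 1.42.0, limma 3.58.1 on log2(FPKM + 1) and log2(FPKM + 0.1), the replicate number as a block, a widened basement membrane class, sums without the most abundant chain, and leaving out each library. The scripts were tested on simulated data. Named were EIF1, every tested chain and up to 6 genes of a list with the smallest p among those that passed. CRTAP, P4HA1, P4HA2, PLOD2, PLOD3, LOXL2, LOXL3 and ADAMTS14 were named beyond that limit, and all markers as lists. Members and lists were chosen with earlier results of these data known. Coordinates come from GENCODE release 44 and promoter sequences from RefSeq. Alternative splicing was not analysed here.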

Additional observations from a re-analysis of the deposited data

How the results depend on the processing

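The count of 8 higher chains was 8 with RLE, with upper-quartile scaling and with 10 counts required in every library, 9 with no filter, 10 with DESeq2, 10 with the replicate block, 6 in both limma analyses of FPKM and 6 to 10 with a library left out. The count of lower chains was 0 except without NC replicate 1 (0 to 1 with a library left out), and no chain passed the fold limits in any setting. The replicate block, which treats same-numbered libraries as pairs, raised 2 chains past the threshold (COL12A1 and COL8A1) and lost none. It gave 4 higher and 1 lower receptor genes, 2 higher proteases and 2 higher collagen-like genes, and moved the count of no other list by over 1.5 times. In value, COL4A4 turned to -0.032 and COL8A2 to 0.028 without NC replicate 1, and COL8A2 to 0.010 without siEIF1 replicate 2. COL4A4 ran from -0.032 to 0.11 and COL8A2 from -0.084 to 0.028 with a library left out, and neither passed.

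The fibrillar median was 0.020 with no filter, when all 10 fibrillar chains enter, and 0.17 with limma on log2(FPKM + 1), which also gave 0.11 for the other types. Without one library the fibrillar median ran from 0.25 to 0.36, the type IV median from 0.042 to 0.14 and that of the other types from 0.17 to 0.36. The widened basement membrane class had 0.17, and sums without COL8A1 had a ratio of 1.18 for all chains and 1.18 for the other types. Higher export genes were 1 with RLE, upper-quartile scaling, no filter, DESeq2 and both limma analyses, which also gave 0 lower ones. Both limma analyses gave 2 higher fibril-organising genes, 4 higher type IV partners, 1 higher receptor and 0 higher collagen-like genes. No filter gave 4 higher receptors and 1 lower collagen-like gene, and the filter of 10 counts gave 2 higher proteases. With a library left out, export genes ran from 1 to 2 higher and 0 to 1 lower, type IV partners from 4 to 9, receptors from 2 to 4 higher and 0 to 2 lower, and collagen-like genes from 0 to 1. Over all genes, 286 passed the fold limits with edgeR, 20 with limma on log2(FPKM + 1) and 164 on log2(FPKM + 0.1), where a pseudocount shrinks folds of low genes. For the other changes the cause was not tested. Depth limits the 19 chains below the filter, and whether COL4A2, COL5A1, COL8A1 and COL12A1 passed depended on the setting. COL1A1 and COL16A1 as higher and COL11A2 as lower each passed only with a library left out.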
